A study of Mus musculus with 9 samples.

Results

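In the perinatal mouse heart, 83 genes stood highest on the first postnatal day (P1d) and lower both before birth and a week after it. RNA was measured in hearts of untreated wild-type C57BL/6J mice at embryonic day 18.5 (E18.5d), P1d and postnatal day 7 (P7d), with 3 hearts labelled as biological replicates at each stage and all 9 labelled as male. Whether a replicate was a single heart or a pool is not given in the sources used here. Values are FPKM, fragments scaled to exon length and library size, a level per length that can be compared between genes. The genes were chosen by these values. A gene was counted when its P1d mean was at least 5 FPKM and at least 2 times the mean of each other stage, and when its lowest P1d heart lay above the highest of the other 6 hearts. Symbols starting with Gm or Rnu were left out. Of 24643 rows with a usable gene symbol, 83 met the rule, under 82 symbols, because a pair of stefin genes on chromosome 16 shares the symbol *Stfa2* (the second is called *Stfa2l1* here, its GENCODE name). They made up 0.678% of the 12243 such rows tested, and 79 were protein-coding. The P1d peak was thus fixed by the rule and is given as a description, and only P7d against E18.5d was tested for these genes.

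Birth ends the supply of glucose and hormones through the placenta, starts breathing and milk feeding, and exposes the newborn to cold. Glucocorticoids rise around birth in mammals and act through the glucocorticoid receptor, a nuclear receptor that switches on genes such as *Per1*, *Klf9*, *Zbtb16* and the metallothioneins. When insulin is low, FoxO transcription factors enter the nucleus and switch on genes such as *Irs2* and *Txnip*, and the circadian clock runs as a loop in which CLOCK and BMAL1 bind E-boxes and the period, cryptochrome and REV-ERB proteins shut them off again. Genes of these programs were among the 83, together with metabolic enzymes, heart muscle genes and genes of myeloid cells. The order by role used below was made after the values were seen.

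The level at P1d ran from 5.02 FPKM for *Ciart* to 796 FPKM for *Txnip*, with a median of 14.1 FPKM. Against the higher of the other stage means, the P1d mean was 2.01 to 7.81 times as high, with a median of 2.33; 19 genes reached 3 times and 48 stayed under 2.5 times. At E18.5d the 83 means had a median of 5.003 FPKM, and the P7d means had one of 5.03 FPKM. The number of genes depended on how the columns were scaled: 48 of the 83 still met the rule when all columns were brought to an equal FPKM sum, and 71 did after median-of-ratios scaling. Under none of the 4 scalings tried did 9 of the 83 meet it, *Txnip*, *Klf9*, *Inpp5k*, *Capg*, *Hsd17b11*, *Thnsl2*, *Sbk2*, *Armcx5* and *Ypel5*, so their place in the group rests on the FPKM as deposited.

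**Figure D1:**
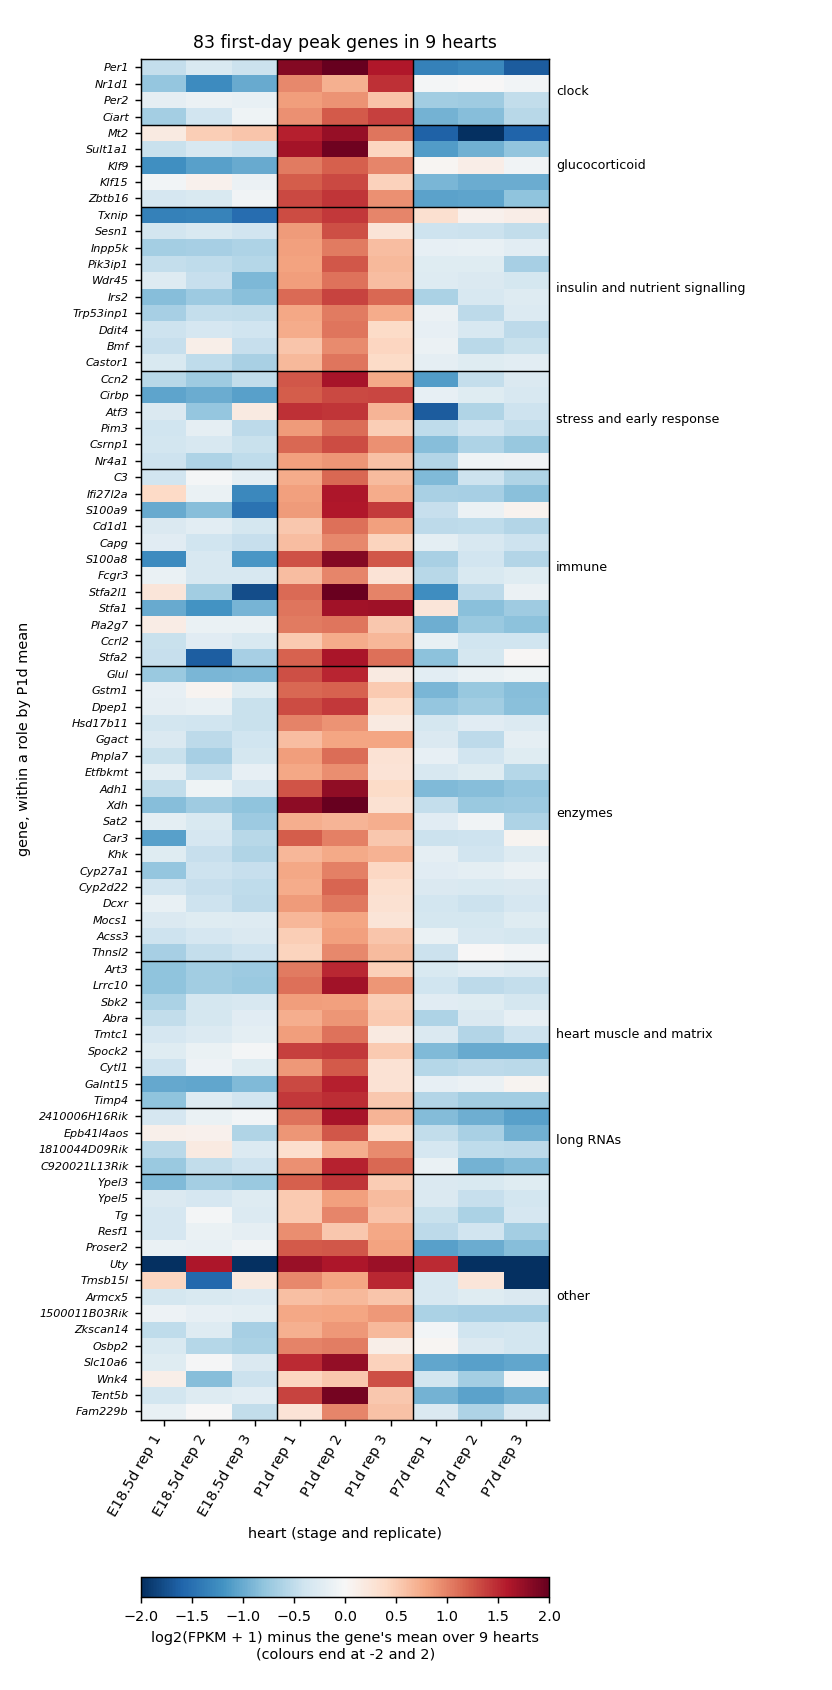
Each row is 1 of the 83 genes and each column 1 heart; the colour gives log2(FPKM + 1) minus the gene's own mean over the 9 hearts, and genes are ordered by role and then by P1d mean. The 3 P1d columns are the reddest in every row, as the rule required, and the third P1d heart is paler than the other two in most rows.

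The depth of the libraries, estimated from the steps between low FPKM values, was 24750000 to 45000000 fragments. For the lowest P1d heart of a gene that gave 21.9 fragments (*Stfa2l1*) to 53780 (*Txnip*), with a median of 893, a limit from counting alone. Over all 9 hearts the lowest heart of a gene gave as few as 0 fragments (*Stfa2* and *Uty*), with a median of 299.5. Cardiomyocyte markers summed to 42050 to 49380 FPKM in every heart, so the tissue matched its label. *Xist*, which female cells transcribe from the inactive X, read 82.6 and 97.03 FPKM in the E18.5d replicates 1 and 3. It read 58.03 and 69.96 FPKM in the P7d replicates 2 and 3, although all 9 hearts carry the same sex label. The remaining 5 hearts had 0.02 to 0.11 FPKM. The P1d hearts were all without *Xist*. With only the 5 hearts without *Xist*, 78 genes met the rule and 67 of the 83 were among them. Within P1d the hearts were unequal for these genes: replicate 2 was highest in 67 of 83 (80.7%), against 42.8% of 8911 other genes with a P1d mean of at least 5 FPKM. Replicate 3 was lowest in 60 (72.3%, against 37.4%). Replicate 3 stood at a median of 75.2% of the mean of replicates 1 and 2 for these genes, and at 98.6% for the others. It lay under 60% for 21 genes, while 1.16% of the other genes were that low, and at or above 100% for 14 genes. Leaving out P1d replicate 3, 139 genes met the rule and 79 of the 83 were among them, and leaving out P1d replicate 2, 54 did, 51 of them shared. Other tissue differed between the P1d hearts too. The summed lung and airway markers were 569, 4.94 and 2.31 FPKM in P1d replicates 1, 2 and 3, the liver markers 65.1, 136 and 48.2 FPKM, and the red cell markers 15710, 24740 and 12740 FPKM. At E18.5d the lung and airway markers were 101, 283.5 and 2.55 FPKM by replicate, and the red cell markers 11110, 8424 and 22750 FPKM. The E18.5d liver markers were closer, at 53.5, 53.05 and 47.3 FPKM. At P7d the lung and airway markers were 0.47, 0.94 and 0.82 FPKM. Their part in the results was not tested.

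**Figure D2:**
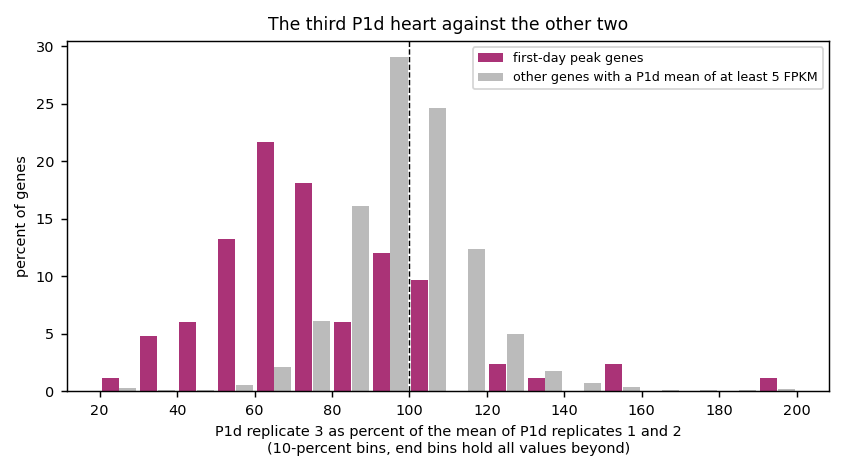
The level in the third P1d heart as a percent of the mean of the first and second (x axis, bins of 10%) against the percent of genes in each bin (y axis), for the 83 genes and for the other genes with a P1d mean of at least 5 FPKM. The 83 genes centre on 75.2% and the other genes on 98.6%.

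*Per1* (chr11:69095217-69109960, plus strand) is a period gene that both the clock and glucocorticoids induce. Its hearts read 16.5, 18.6 and 17.02 FPKM at E18.5d, 86.2, 104 and 72.7 at P1d and 8.54, 8.95 and 6.65 at P7d. The lowest P1d heart stood far above the highest other heart, and the P1d mean of 87.6 ± 15.6 FPKM (SD, n = 3) was 5.04 times the E18.5d mean and 10.9 times the P7d mean. *Per2* (chr1:91415982-91459324, minus strand) is its partner in the inhibitory limb. It was lower, with 3.77, 3.98 and 3.86 FPKM at E18.5d, 8.6, 9.04 and 7.02 at P1d and 2.32, 2.29 and 2.84 at P7d. *Nr1d1* (chr11:98767932-98775333, minus strand) encodes REV-ERBα, the repressor of *Arntl*. Its hearts had 4.37, 2.86 and 3.57 FPKM at E18.5d, 17, 14.1 and 24.2 at P1d and 7.92, 8.24 and 7.82 at P7d. Here the third P1d heart was the highest, at 156% of the mean of the other two. *Ciart* (chr3:95878503-95882251, minus strand) is a repressor that binds BMAL1 and was the least abundant of the 83 at P1d. It had 0.66, 1.05 and 1.5 FPKM at E18.5d, 4.02, 5.2 and 5.85 at P1d and 0.38, 0.48 and 0.81 at P7d, and the third P1d heart was again the highest. *Ciart* lies within *C920021L13Rik* (chr3:95871522-95889093, plus strand), an antisense RNA. That RNA read 0.89, 1.25 and 1.36 FPKM at E18.5d, 4.95, 8.11 and 5.97 at P1d and 1.86, 0.63 and 0.72 at P7d. The sources do not state whether counting kept the strand, so reads of *Ciart* and of this RNA may not have been kept apart. The gene spans were compared and not the exons, so the extent of this is not known. The 3′ end of *Nr1d1* overlaps that of *Thra*, on the other strand, by 1075 bases, with the same limit.

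The promoters of *Ciart* and *Per1* are shown because they carry the E-box that the core clock proteins bind. Of the other clock genes in the group, *Nr1d1* had no match to it, and *Per2* had no promoter to search. Of the 83 genes, 68 had at least 1 start in the RefSeq table (GRCm38.p6), with 87 windows of 300 bases in all, running from 250 bases before to 50 after the start. The E-box CACGTG, which reads the same on both strands, was in 10 of the 87 windows (11.5%) and in 7.15% of all 32851 windows. Below are the 250 bases before the start, 5′ to 3′ on the gene's strand, with CACGTG in capitals; *Ciart* holds it 3 times, 44 to 116 bases before the start, and *Per1* holds it 1 time, 166 bases before.
Ciart (chr3:95882229-95882478, minus strand): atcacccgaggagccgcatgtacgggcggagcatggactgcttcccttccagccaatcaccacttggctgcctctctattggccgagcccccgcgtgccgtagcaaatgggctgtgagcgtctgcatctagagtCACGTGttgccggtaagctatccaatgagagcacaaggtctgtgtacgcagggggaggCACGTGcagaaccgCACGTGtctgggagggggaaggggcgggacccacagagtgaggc
Per1 (chr11:69098699-69098948, plus strand): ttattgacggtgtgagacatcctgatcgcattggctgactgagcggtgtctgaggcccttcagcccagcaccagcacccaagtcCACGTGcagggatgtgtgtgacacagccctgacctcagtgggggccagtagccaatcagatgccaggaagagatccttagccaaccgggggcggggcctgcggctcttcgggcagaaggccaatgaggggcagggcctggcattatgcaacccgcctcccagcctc
A match is a stretch of letters and not a bound site.

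The rest of the clock list shared the direction in part. Of 16 other clock genes tested, 10 rose from E18.5d to P1d and 1 fell, where 18.4% of all 13618 genes tested rose and 27.6% fell, and from P1d to P7d 9 fell and 0 rose (28.6% and 15.5% of all genes). By limma at an unadjusted p under 0.05 the count higher at P7d was also 0. The median log2 difference of the 16 was 0.57 at P1d against E18.5d, beside -0.06 over all genes tested, and -0.44 at P7d against P1d, beside -0.09. After median-of-ratios scaling the clock counts were the same, while 23.2% of all genes rose and 22.9% fell at P1d, and 21.9% rose and 19.8% fell from P1d to P7d. *Dbp*, a D-box activator, read 7.46, 8.17 and 7.94 FPKM at E18.5d, 22.4, 23.8 and 29.98 at P1d and 18.2, 15.4 and 17.8 at P7d (log2 difference 1.56 ± 0.11 SE, limma adjusted p = 7.6e-06 at P1d against E18.5d). *Nr1d2*, which encodes REV-ERBβ, read 12.01, 12.2 and 11.9 FPKM at E18.5d, 29.9, 30.2 and 36.1 at P1d and 24.1, 19.2 and 22.3 at P7d (log2 difference 1.34 ± 0.10 SE, limma adjusted p = 9e-06). The log2 differences from P1d to P7d were -0.53 for *Dbp* and -0.53 for *Nr1d2*, beside -3.29 for *Per1*. *Per3* (3.42, 3.69 and 3.66 FPKM at E18.5d and 9.92, 11.9 and 11.4 at P1d) and *Cry2* (8.04, 6.14 and 5.81 and 17.6, 16.1 and 18.2) rose too (limma adjusted p = 3.6e-06 and 2.8e-05). The single gene that fell was *Bhlhe40*, a repressor of the loop (log2 difference -0.56 ± 0.16 SE, limma adjusted p = 0.018), and that call was lost under 3 of the alternative settings. *Arntl*, which encodes BMAL1, and *Clock* did not pass the test between any stages, with 6.08, 6.28 and 5.84 FPKM at E18.5d and 8.15, 5.76 and 5.35 at P1d for *Arntl* and 11.4, 12.2 and 13.7 and 13.4, 10.6 and 13.4 for *Clock*. The hour of day at which hearts were taken is not given in the sources used here, so stage and time of day cannot be told apart.

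**Figure D3:**
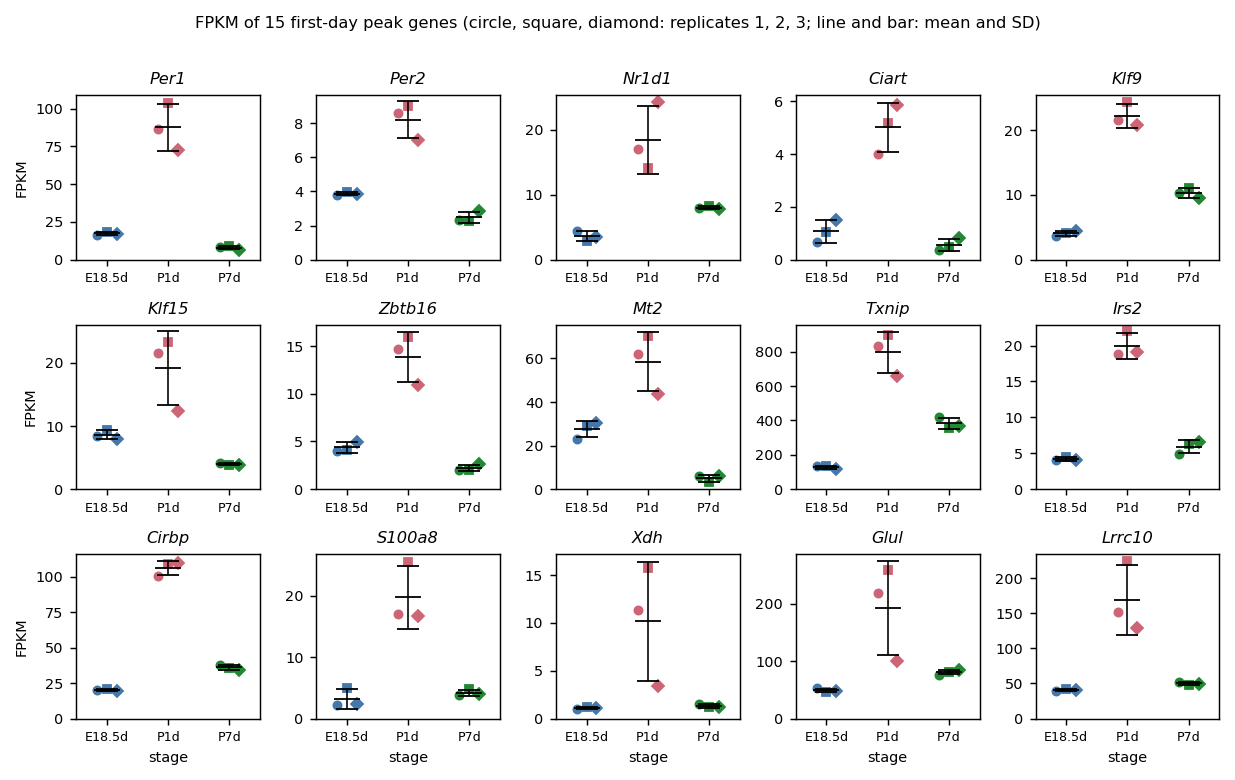
FPKM (y axis, from 0, a scale for each panel) by stage for 15 of the 83 genes; each symbol is a heart (circle, square and diamond for replicates 1, 2 and 3) and the bars give the mean and SD. Per1 reaches 87.6 FPKM at P1d from 17.4 FPKM at E18.5d, and the diamond lies lowest at P1d in Xdh and Glul and highest in Nr1d1 and Ciart.

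Of the 83 genes, 7 belong to the glucocorticoid response list (*Per1*, *Zbtb16*, *Klf9*, *Klf15*, *Mt2*, *Ddit4* and *Sult1a1*). *Klf9* (chr19:23141226-23168134, plus strand) is a Krüppel-like transcription factor induced by the receptor. The hearts had 3.68, 4.18 and 4.46 FPKM at E18.5d, 21.5, 24.3 and 20.7 at P1d and 10.3, 11.1 and 9.52 at P7d. Its P1d hearts were tight, 22.2 ± 1.896 FPKM (SD, n = 3), or 5.402 times the E18.5d mean, and at P7d every heart was still above every E18.5d heart. It, too, met the rule under none of the 4 other scalings. *Klf15* (chr6:90462576-90475238, plus strand) encodes a factor that controls amino acid and lipid use in muscle. It had 8.37, 9.42 and 8.02 FPKM at E18.5d, 21.6, 23.4 and 12.5 at P1d and 4.18, 3.89 and 3.9 at P7d. *Zbtb16* (chr9:48654297-48836222, minus strand) is a zinc finger factor also known as PLZF. Levels were 4, 4.13 and 4.99 FPKM at E18.5d, 14.7, 15.98 and 10.9 at P1d and 2, 2.03 and 2.62 at P7d, and the P1d mean was 6.26 times the P7d mean. For *Klf15* the third P1d heart was 55.4% of the mean of the other two, and for *Zbtb16* it was 71.2%. *Mt2* (chr8:94172664-94173568, plus strand) is a metallothionein that binds zinc and copper. By heart it read 23.2, 29.1 and 30.2 FPKM at E18.5d, 61.8, 70.1 and 43.9 at P1d and 5.93, 3.12 and 6.04 at P7d. All P7d hearts were below all E18.5d hearts. *Sult1a1* (chr7:126672865-126676432, minus strand) is a phenol sulfotransferase. It stood at 11.7, 12.97 and 12.1 FPKM at E18.5d, 53.8, 65.9 and 22.4 at P1d and 7.01, 7.89 and 9.07 at P7d, and here the third P1d heart reached 37.4% of the other two. *Ddit4* (chr10:59949669-59951834, minus strand) is an inhibitor of mTORC1, also called REDD1. It was at 7.22, 7.7 and 7.33 FPKM at E18.5d, 17.3, 22.02 and 13.3 at P1d and 8.78, 7.78 and 6.68 at P7d.

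Among 15 other genes of the glucocorticoid list that were tested, 10 rose from E18.5d to P1d and 0 fell by limma (also 0 at an unadjusted p under 0.05). From P1d to P7d 9 fell and 2 rose. Over all genes tested, 18.4% rose and 27.6% fell at P1d, and 15.5% rose and 28.6% fell from P1d to P7d. The medians were 0.54 and -0.78 on the log2 scale. *Lcn2* was among both the 10 and the 9. Its mean over all hearts reached the 1 FPKM needed for testing through its P1d values alone, so its calls are no support. *Hsd11b1* and *Tat* were too low to be tested. *Pdk4*, a kinase that inhibits pyruvate dehydrogenase, rose most, from 11.2, 11.2 and 12.1 FPKM at E18.5d to 176, 135 and 108 at P1d (log2 difference 3.47 ± 0.15 SE, limma adjusted p = 9e-07). At P7d it read 135, 117 and 132 FPKM, so it did not meet the rule. *Sgk1*, a kinase, went from 25.02, 29.3 and 23.9 to 76.4, 65.4 and 53.6 FPKM (log2 difference 1.28 ± 0.12 SE, limma adjusted p = 4.6e-05). *Tsc22d3*, also called GILZ and often read as a marker of the receptor's activity, rose less, with 58.04, 55.7 and 53.8 FPKM at E18.5d, 77.8, 104 and 67.8 at P1d and 39.9, 37.8 and 35.7 at P7d (log2 difference 0.54 ± 0.13 SE, limma adjusted p = 0.0074). *Fkbp5*, another common marker, had 25.4, 33.1 and 11 FPKM at P1d beside 13.9, 15.8 and 14.2 at E18.5d and did not pass (log2 difference 0.50 ± 0.31 SE, limma adjusted p = 0.21). The third P1d heart was below all 3 E18.5d hearts, while the first and second were above them. *Dusp1*, a phosphatase of MAP kinases, rose again to P7d, with 13.6, 13.9 and 13.8 FPKM at E18.5d, 27.1, 25.1 and 27.7 at P1d and 35.03, 42.5 and 36.8 at P7d (log2 difference 0.50 ± 0.08 SE, limma adjusted p = 0.00081 from P1d to P7d).

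The half-site AGAACA of the glucocorticoid receptor was, on either strand, in 15 of the 87 windows (17.2%) and in 19.0% of all windows. *Klf15* and *Sult1a1* are shown next, *Klf15* for the E-boxes that it shares with *Ciart* and *Per1*, and *Sult1a1* for a half-site in each orientation. No other member of the glucocorticoid list had a half-site in a window. *Per1*, *Klf9*, *Klf15*, *Mt2* and *Ddit4* were searched without a match, and *Zbtb16* had no promoter to search. The sequences are again the 250 bases before the RefSeq start with the matches in capitals, CACGTG for *Klf15* and AGAACA on either strand for *Sult1a1*. They begin 172 and 228 bases before the *Klf15* start and 34 and 212 bases before the *Sult1a1* start.
Klf15 (chr6:90462326-90462575, plus strand): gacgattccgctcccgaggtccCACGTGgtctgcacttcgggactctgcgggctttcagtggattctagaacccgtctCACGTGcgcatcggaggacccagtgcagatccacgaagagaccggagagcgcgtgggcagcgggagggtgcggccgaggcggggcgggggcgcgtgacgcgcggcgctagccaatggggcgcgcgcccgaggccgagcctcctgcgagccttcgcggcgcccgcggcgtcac
Sult1a1 (chr7:126676419-126676668, minus strand): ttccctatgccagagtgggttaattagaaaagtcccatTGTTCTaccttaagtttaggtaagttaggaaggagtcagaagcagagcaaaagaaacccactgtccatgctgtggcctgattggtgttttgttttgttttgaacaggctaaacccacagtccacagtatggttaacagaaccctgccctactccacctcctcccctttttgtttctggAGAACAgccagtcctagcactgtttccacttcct

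Genes of insulin and nutrient signalling were the next group, with 10 members. *Txnip* (chr3:96557957-96561883, plus strand), an arrestin-like protein that blocks glucose uptake and binds thioredoxin, was the most abundant of the 83 by mean at every stage. Its hearts read 132, 132 and 117 FPKM at E18.5d, 832, 896 and 662 at P1d and 422, 356 and 370.1 at P7d. The P1d mean was 6.27 times the E18.5d mean and 2.08 times the P7d mean. Of the rise from E18.5d, 38.2% was left at P7d, the highest share in the group, though the rule capped that share for every gene. *Txnip* met the rule under none of the 4 other scalings. An antisense RNA, *Gm15441*, overlaps all 3927 bases of *Txnip* and had a P1d mean of 2.32 FPKM. *Irs2* (chr8:10984681-11008458, minus strand) encodes the adaptor that carries the insulin signal to PI3K. It read 4.02, 4.46 and 4.08 FPKM at E18.5d, 18.8, 21.99 and 19.03 at P1d and 4.85, 6.29 and 6.56 at P7d, with a P1d mean of 19.9 ± 1.77 FPKM (SD, n = 3). *Sesn1* (chr10:41809935-41908424, plus strand) is a sestrin that senses leucine and restrains mTORC1. Its values were 25.2, 26.4 and 25.1 FPKM at E18.5d, 59.99, 81.5 and 39.7 at P1d and 24.5, 24.1 and 23.1 at P7d, and its P1d hearts ranged widely, with the third at 56.1% of the other two. *Trp53inp1* (chr4:11156431-11174379, plus strand) is a p53 target that takes part in autophagy. Its hearts read 5.81, 6.76 and 6.65 FPKM at E18.5d, 17.3, 21.3 and 17.04 at P1d and 8.91, 6.47 and 7.93 at P7d. The remaining members here were *Pik3ip1*, an inhibitor of PI3K, *Inpp5k*, a phosphatase of PI3K products, *Castor1*, an arginine sensor of mTORC1, *Bmf*, a pro-apoptotic BH3 protein, and *Wdr45*, an autophagy protein. Their P1d means, with those of *Ddit4* and the 4 genes above, ran from 6.96 to 796 FPKM, and in all 10 the second P1d heart was the highest.

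*Klf9* and *Txnip* are shown for the FoxO motif GTAAACA, which was, on either strand, in 7 of the 87 windows (8.05%) and in 3.65% of all windows. Of the other members in the FoxO and atrophy list described below, *Sesn1* had it after the start, and *Irs2* and *Ddit4* had no match. The motif stood 100 bases before the *Klf9* start and 121 before the *Txnip* start. Capitals mark it in the 250 bases before each.
Klf9 (chr19:23140976-23141225, plus strand): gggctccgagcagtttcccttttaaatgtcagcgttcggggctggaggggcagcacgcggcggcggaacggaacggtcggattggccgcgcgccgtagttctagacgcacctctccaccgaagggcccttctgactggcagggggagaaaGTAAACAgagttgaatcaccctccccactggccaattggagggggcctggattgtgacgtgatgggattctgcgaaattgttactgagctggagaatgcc
Txnip (chr3:96557707-96557956, plus strand): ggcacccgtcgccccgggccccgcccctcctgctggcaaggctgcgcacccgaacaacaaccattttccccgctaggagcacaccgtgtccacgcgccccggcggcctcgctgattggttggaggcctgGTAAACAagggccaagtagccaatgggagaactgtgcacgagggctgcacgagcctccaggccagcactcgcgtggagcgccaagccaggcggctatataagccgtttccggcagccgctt
Of the other motifs searched, all on either strand, the D-box TTATGTAA was in 0 of the 87 windows (0.938% of all), the cyclic AMP response element TGACGTCA in 1 (1.15%, against 1.79%), and the REV-ERB half-site AGGTCA in 12 (13.8%, against 16.3%). Matches to 2 different motifs overlapped in 1 place, in *Tmsb15l*.

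In the FoxO and atrophy list most other genes moved with the 4 members. Of 19 tested, 15 rose from E18.5d to P1d by limma and 0 fell (1 at an unadjusted p under 0.05). From P1d to P7d 14 fell and 1 rose. Over all genes tested, 18.4% rose and 27.6% fell at P1d, and 15.5% rose and 28.6% fell from P1d to P7d. The medians were 0.69 and -0.65 on the log2 scale. *Map1lc3b*, the LC3 protein of autophagosomes, rose from 44.6, 44.6 and 46.2 to 105, 115 and 82.3 FPKM and read 60.9, 58.7 and 54.9 FPKM at P7d (log2 difference 1.13 ± 0.11 SE, limma adjusted p = 4.7e-05 at P1d against E18.5d). *Foxo3* itself went from 17.1, 17.4 and 18.1 to 31.6, 41.8 and 22.2 FPKM and read 17.2, 16.8 and 17.2 FPKM at P7d (log2 difference 0.79 ± 0.17 SE, limma adjusted p = 0.005). The p53 list, which holds *Sesn1* and *Trp53inp1*, was mixed: of 19 other genes 6 rose and 2 fell at P1d, and the median was -0.02, near the -0.06 of all genes. Among them *Btg2*, an antiproliferative factor, read 10.8, 11.2 and 12.6 FPKM at E18.5d, 27.1, 29.9 and 21.2 at P1d and 15.1, 19.9 and 18.96 at P7d (log2 difference 1.10 ± 0.13 SE, limma adjusted p = 0.00019), and *Ccng1*, cyclin G1, fell (log2 difference -0.54 ± 0.11 SE, limma adjusted p = 0.0037).

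**Figure D4:**
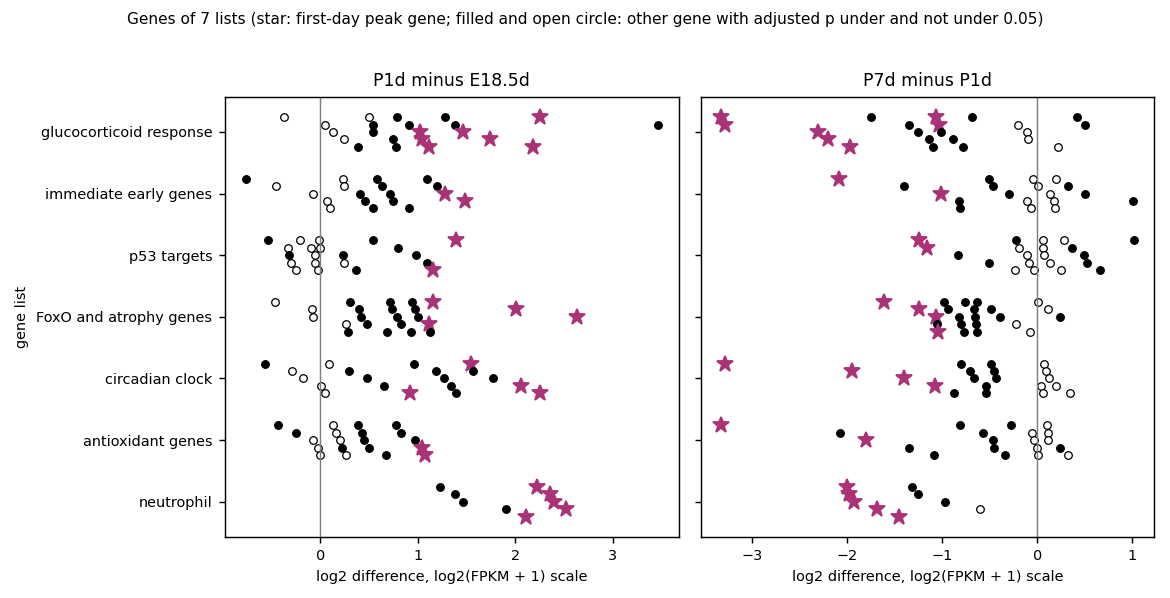
Each symbol is a gene of 1 of 7 lists, placed by its log2 difference on the log2(FPKM + 1) scale at P1d against E18.5d (left) and at P7d against P1d (right); stars are genes of the P1d-high group, whose place the rule fixed, and filled circles other genes with an adjusted p under 0.05. In the FoxO list 15 of 19 other genes are filled to the right of 0 in the left panel, and in the p53 list 6 of 19. Over all genes tested, 18.4% rose at P1d.

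Early response and stress genes came next. *Ccn2* (chr10:24595442-24598683, plus strand) is the connective tissue growth factor that YAP and TGF-β induce. The hearts had 72.5, 65.3 and 76.1 FPKM at E18.5d, 256, 338 and 181 at P1d and 48.7, 76.3 and 87.2 at P7d. *Atf3* (chr1:191170296-191218039, minus strand) is a stress-induced transcription factor. Levels were 9.22, 6.31 and 13.2 FPKM at E18.5d, 33.5, 32.7 and 19.1 at P1d and 2.95, 7.29 and 8.4 at P7d, and the E18.5d and P7d hearts overlapped. *Nr4a1* (chr15:101254269-101274795, plus strand) is an orphan nuclear receptor of the immediate early class. By heart it read 4.44, 3.71 and 4.1 FPKM at E18.5d, 11.8, 12.4 and 9.9 at P1d and 3.81, 5.79 and 5.91 at P7d. *Csrnp1* (chr9:119971163-119984658, minus strand) is a nuclear protein induced by AXIN1. It stood at 3.4, 3.53 and 3.15 FPKM at E18.5d, 11.5, 13 and 9.65 at P1d and 2.12, 2.67 and 2.34 at P7d. Its gene overlaps *Cx3cr1* on the same strand by 13496 bases. *Cirbp* (chr10:80165985-80172786, plus strand) encodes a cold-inducible RNA-binding protein. Its hearts read 20.3, 20.99 and 19.7 FPKM at E18.5d, 101, 109 and 109.8 at P1d and 38.1, 35.96 and 34.1 at P7d, with a P1d mean of 106 ± 4.99 FPKM (SD, n = 3). The third P1d heart was not low for *Cirbp*, at 105% of the other two, and at P7d all hearts remained above all E18.5d hearts. *Pim3*, a serine kinase, completed the group. Of 17 other immediate early genes tested, 10 rose from E18.5d to P1d and 1 fell (18.4% and 27.6% of all genes), with a median of 0.46. From P1d to P7d 6 fell and 3 rose (28.6% and 15.5% of all genes). The median was -0.04 against -0.09 over all genes. After median-of-ratios scaling 5 fell and 5 rose. *Fos* had 2.28, 1.98 and 2.03 FPKM at E18.5d, 7.34, 4.73 and 6.52 at P1d and 4.84, 7.03 and 6 at P7d (log2 difference 1.20 ± 0.15 SE, limma adjusted p = 0.00024 at P1d against E18.5d). *Ier3* was the gene that fell at P1d (log2 difference -0.77 ± 0.07 SE, limma adjusted p = 4.5e-05).

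Of the 83, 5 rows are markers of neutrophils, the granulocytes that circulate in blood. *S100a8* (chr3:90668978-90670035, plus strand) and *S100a9* (chr3:90692632-90695721, minus strand), whose products pair as calprotectin, lie 22597 bases apart. *S100a8* read 2.13, 4.99 and 2.33 FPKM at E18.5d, 16.98, 25.6 and 16.7 at P1d and 3.79, 4.76 and 3.98 at P7d. Its P1d mean was 6.27 times the E18.5d mean. *S100a9* read 4.65, 5.26 and 3.08 FPKM at E18.5d, 19.4, 33.3 and 28.8 at P1d and 7.25, 9.41 and 10.9 at P7d, with every P7d heart above every E18.5d heart. The stefins, inhibitors of cysteine proteases, sit together on chromosome 16. *Stfa1* (chr16:36276951-36285373, plus strand) had 0.66, 0.46 and 0.76 FPKM at E18.5d, 6.01, 9.73 and 9.78 at P1d and 2.94, 0.86 and 1.03 at P7d. *Stfa2* (chr16:36403992-36408457, minus strand) was at 1.27, 0 and 0.98 FPKM at E18.5d, 6.09, 8.63 and 5.68 at P1d and 0.77, 1.45 and 2.17 at P7d. *Stfa2l1* (chr16:36156811-36161953, plus strand) had 4.09, 1.66 and 0.26 FPKM at E18.5d, 8.43, 16.1 and 7.61 at P1d and 0.83, 2 and 2.98 at P7d. The stefin copies are near-identical, so their separate levels are uncertain. Without these 5 rows, which the rule chose, the 16 other rows found for the neutrophil list summed to 2.36 to 5.09 FPKM at E18.5d, 15.3 to 23.4 FPKM at P1d and 5.91 to 7.77 FPKM at P7d. Of the 16, 12 were too low to be tested, and those summed to 1.36 to 1.46 FPKM at E18.5d, 3.43 to 5.8 FPKM at P1d and 1.21 to 2.15 FPKM at P7d. The other 4 passed the filter on the mean over all hearts, *Lcn2* and *Retnlg* through their P1d values alone, so their number is no support for a rise. *Ngp*, a granule protein, went from 0.89, 0.46 and 0.24 to 4.26, 6.38 and 3.6 FPKM (limma adjusted p = 0.0001). *Lcn2*, which binds bacterial siderophores, went from 0.96, 0.83 and 0.41 to 3.28, 4.6 and 2.71 FPKM (limma adjusted p = 0.00032). *Ltf*, lactoferrin, went from 0.62, 0.59 and 0.2 to 5.81, 2.44 and 1.75 FPKM (limma adjusted p = 0.005), and *Retnlg* from 1.16, 0.79 and 0.1 to 1.48, 4.19 and 3.24 FPKM (limma adjusted p = 0.0081). Other genes of the lineage were at or near 0: *Elane*, *Fcnb* and *Ly6g* were listed at 0 in the 3 P1d hearts. In whole hearts, more cells of a type and more RNA per cell cannot be told apart.

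Other immune genes were in the group as well. *Fcgr3* (chr1:171051174-171064935, minus strand), a receptor for IgG on myeloid cells, lay just inside the rule. It had 6.86, 5.94 and 5.92 FPKM at E18.5d, 12.3, 15.9 and 9.46 at P1d and 4.88, 5.98 and 6.27 at P7d, and the P1d mean was 2.01 times the E18.5d mean. *C3*, the central complement component, *Ccrl2*, a chemerin-binding receptor, *Cd1d1*, which presents lipids, *Capg*, an actin-capping protein of macrophages, *Ifi27l2a*, an interferon-induced gene, and *Pla2g7*, a secreted phospholipase, had P1d means from 7.16 FPKM for *Ccrl2* to 52.3 FPKM for *C3*. Macrophage markers summed to 81.4 to 99.1 FPKM at E18.5d, 105 to 159 FPKM at P1d and 89.3 to 95.98 FPKM at P7d, and 6 of the 10 tested rose at P1d by limma. None of them fell (also 0 at an unadjusted p under 0.05). The interferon list put none of its genes in the group, and 3 of its 16 tested genes rose and 6 fell at P1d. Over all genes tested, 18.4% rose and 27.6% fell at P1d.

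The largest set of known function, 18 genes, encodes enzymes. *Xdh* (chr17:73883895-73950196, minus strand), the xanthine dehydrogenase that makes uric acid from purines, had the highest ratio of P1d to the higher of the other stage means, at 9.39 times the E18.5d mean and 7.81 times the P7d mean. Its hearts read 1, 1.19 and 1.06 FPKM at E18.5d, 11.4, 15.7 and 3.43 at P1d and 1.57, 1.16 and 1.18 at P7d. The P1d mean was 10.2 ± 6.23 FPKM (SD, n = 3), and the third heart reached 25.3% of the other two while above all 6 hearts of the other stages. *Mocs1*, which starts the synthesis of the molybdenum cofactor that XDH needs, was also in the group, with a P1d mean of 6.92 FPKM. *Glul* (chr1:153899944-153909723, plus strand) is glutamine synthetase. Its values were 52.8, 46.8 and 47.2 FPKM at E18.5d, 219, 259 and 101 at P1d and 76.7, 80.9 and 84.3 at P7d, again with the third P1d heart low. *Adh1* (chr3:138260991-138290698, plus strand) is an alcohol dehydrogenase that also oxidizes retinol. Its hearts read 3.09, 4.42 and 3.61 FPKM at E18.5d, 12.8, 18.6 and 6.47 at P1d and 2.12, 2.17 and 2.36 at P7d. An antisense RNA that overlaps its gene over 9291 bases had a mean of at most 0.103 FPKM at any stage. *Gstm1* (chr3:108012255-108017973, minus strand) is a glutathione transferase with close relatives next to it. The hearts had 39.99, 46.7 and 37.6 FPKM at E18.5d, 100.5, 103 and 65.01 at P1d and 23.4, 25.98 and 24.2 at P7d. Among 18 other antioxidant and detoxification genes, 9 rose and 2 fell at P1d (18.4% and 27.6% of all genes), with a median of 0.24. From P1d to P7d 9 fell and 1 rose (28.6% and 15.5% of all genes). *Gsta4*, a glutathione transferase, went from 51.8, 49.6 and 47.7 to 85.8, 89.9 and 81.99 FPKM and read 47.5, 51.6 and 46.97 FPKM at P7d (log2 difference 0.78 ± 0.06 SE, limma adjusted p = 1.6e-05). *Mgst1*, a microsomal one, fell from P1d to P7d (log2 difference -2.07 ± 0.13 SE, limma adjusted p = 9.3e-06). *Txnrd1*, thioredoxin reductase, was one of those that fell at P1d (log2 difference -0.43 ± 0.06 SE, limma adjusted p = 0.00033).

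Of the other enzymes, *Khk* (ketohexokinase) and *Dcxr* (xylulose reductase) act on sugars. *Cyp27a1* (sterol hydroxylase), *Hsd17b11*, *Pnpla7* (a lysophospholipase) and *Acss3* (a mitochondrial acyl-CoA synthetase) act on sterols and lipids. *Dpep1* (a dipeptidase), *Ggact* and *Sat2* act on peptides and amines, *Car3* (a carbonic anhydrase) on carbon dioxide and *Cyp2d22* on drugs. *Thnsl2* and *Etfbkmt* (a methyltransferase of an electron carrier) complete the set. Over all 18 enzymes the P1d means ran from 5.84 to 193 FPKM with a median of 9.94 FPKM, and the third P1d heart was under 60% of the other two in 7. *Sat2* with 9.85, 9.43 and 9.82 FPKM and *Khk* with 8.91, 9.62 and 9.17 FPKM, both named after their values were seen, were close in the 3 P1d hearts. The list of fasting and fatty acid genes put 0 of 26 in the group. Of its 23 genes tested, 19 rose at P1d against E18.5d (18.4% of all genes), and 22 were higher at P7d than at E18.5d (12.5%).

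Another 9 genes were placed together as heart muscle and matrix, after the values were seen. The set is loose, since *Galnt15*, *Tmtc1* and *Cytl1* are not described below as genes of either. *Lrrc10* (chr10:117045341-117046768, plus strand) is a leucine-rich repeat protein of cardiomyocytes. Levels were 39.4, 42.6 and 41.2 FPKM at E18.5d, 151, 225 and 129.6 at P1d and 52.6, 48.2 and 49.8 at P7d. The P1d mean was 4.11 times the E18.5d mean. *Art3* (chr5:92331827-92414628, plus strand), a member of the ADP-ribosyltransferase family, was the second most abundant of the 83, with 106, 114 and 111 FPKM at E18.5d, 383, 528 and 257 at P1d and 150.5, 158 and 153 at P7d. *Cxcl10* and *Cxcl11* lie within the *Art3* span on the other strand. *Galnt15* (chr14:32028989-32062197, plus strand), whose product starts O-glycans, had 0.58, 0.56 and 0.74 FPKM at E18.5d, 7.03, 8.42 and 2.89 at P1d and 1.86, 1.95 and 2.31 at P7d. The third P1d heart was the low one, at 37.4% of the other two. *Timp4* (chr6:115241892-115252205, minus strand) is the metalloproteinase inhibitor typical of heart. By heart it read 0.65, 1.39 and 1.2 FPKM at E18.5d, 6.61, 6.98 and 3.15 at P1d and 0.91, 0.77 and 0.77 at P7d. It lies inside *Syn2*, which is on the other strand. *Spock2* (chr10:60106219-60135198, plus strand) is a proteoglycan of the matrix. It stood at 5.11, 5.54 and 6.02 FPKM at E18.5d, 17.6, 18.1 and 9.39 at P1d and 2.92, 2.59 and 2.57 at P7d. *Abra*, an actin-binding protein of striated muscle, *Sbk2*, a kinase, *Tmtc1*, which mannosylates cadherins, and *Cytl1*, a secreted protein, complete it. In all 9 the third P1d heart was the lowest, and in 6 it was under 60% of the other two. Of 14 cardiomyocyte markers tested, 4 rose and 2 fell at P1d (18.4% and 27.6% of all genes). Their median was 0.10, and none was in the group.

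Long non-coding RNAs and genes of other kinds fill the rest. *2410006H16Rik* (chr11:62602877-62604807, plus strand) is a processed transcript. Its values were 43.5, 50.3 and 53.2 FPKM at E18.5d, 119, 175 and 88.8 at P1d and 29.8, 27.6 and 25.6 at P7d. *Slc10a6* (chr5:103605711-103629403, minus strand), a transporter of sulfated steroids, and *Tent5b* (chr4:133480132-133487938, plus strand), a poly(A) polymerase, had the lowest P7d levels of the group. *Slc10a6* read 1.23, 1.6 and 1.17 FPKM at E18.5d, 6.42, 7.99 and 2.63 at P1d and 0.29, 0.25 and 0.29 at P7d, and *Tent5b* read 0.87, 1.02 and 1.07 FPKM at E18.5d, 5.11, 8.1 and 2.51 at P1d and 0.25, 0.15 and 0.22 at P7d. The third P1d heart was low for both, at 36.5% and 38% of the other two. *Wnk4* (chr11:101260567-101277409, plus strand), a kinase of salt transport, went the other way, with 2.99, 1.04 and 1.73 FPKM at E18.5d, 3.95, 4.35 and 7.99 at P1d and 1.85, 1.31 and 2.64 at P7d and the third P1d heart at 192%. *Proser2* (chr2:6097607-6130211, minus strand) had 4.95, 4.88 and 5.18 FPKM at E18.5d, 14.2, 14.4 and 10.3 at P1d and 2.07, 2.27 and 2.58 at P7d. *Ypel3*, *Ypel5*, *Resf1*, *Zkscan14*, *Armcx5*, *1500011B03Rik* and *Tmsb15l*, whose gene overlaps near-identical copies, were further members, with *Epb41l4aos* and *1810044D09Rik* among the non-coding RNAs.

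*Uty* (chrY:1096861-1245759, minus strand) is a demethylase on the Y chromosome. Its hearts read 0, 11.6 and 0 FPKM at E18.5d, 12.6, 11.7 and 12.4 at P1d and 10.5, 0 and 0 at P7d. It was listed at 0 in the 4 hearts that held *Xist*. Among the 5 hearts without *Xist* it was 11.6 FPKM at E18.5d, 11.7 to 12.6 FPKM at P1d and 10.5 FPKM at P7d, and it no longer met the rule there. *Ddx3y*, also on the Y, lay just outside, with a lowest P1d heart of 13.5 FPKM below an E18.5d heart of 13.6 FPKM. The other members that did not meet the rule among the 5 hearts without *Xist* numbered 15, with *Txnip*, *Ddit4*, *Gstm1*, *C3*, *Tg* and *Osbp2* among them.

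The edge of the group was set by small differences. *Tg* (chr15:66670753-66850721, plus strand), thyroglobulin, had the smallest ratio inside at 2.01. It read 6.37, 8.07 and 6.66 FPKM at E18.5d, 12.4, 17.3 and 12.8 at P1d and 5.85, 5.01 and 6.39 at P7d, and its gene overlaps *Sla* on the other strand by 51011 bases. *Gem*, a GTPase with a P1d mean of 8.15 FPKM, had the largest outside at 1.996. *Gabarapl1*, an autophagy gene, followed at 1.98. By level, *Ciart* at 5.02 and *Fam229b* at 5.17 FPKM (2.57, 2.97 and 1.83 FPKM at E18.5d, 3.79, 6.8 and 4.93 at P1d and 2.26, 1.59 and 2.26 at P7d) were the lowest inside. *Ngp*, the neutrophil granule gene, was at 4.75 FPKM and *9530026P05Rik* at 4.72 FPKM, the highest outside. By single hearts, *Uty* came closest, with a gap of 0.12 FPKM between its lowest P1d heart and its highest other heart, and *Ddx3y* missed by 0.14 FPKM, as given above. After them came *Osbp2* (chr11:3703731-3863903, minus strand), an oxysterol-binding protein, with 2.78, 2.16 and 2.03 FPKM at E18.5d, 8.29, 8.55 and 4.09 at P1d and 3.83, 2.83 and 2.64 at P7d and a gap of 0.26 FPKM. *Cstdc4*, another stefin, missed by 0.19 FPKM.

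The comparison that the rule left free was P7d against E18.5d, which asks where these genes stood a week after birth relative to the late fetus. Of the 83 genes, 8 were higher at P7d, 15 were lower and 60 did not pass (limma on log2(FPKM + 1), Benjamini-Hochberg over 13618 genes, adjusted p under 0.05). Over all genes tested, 12.5% were higher and 36.9% lower, or 49.4% in either direction, beside 27.7% of the group. The rule bounds both stages, and the spread of these genes at P1d enters the same fit, so nothing is read from the lower share. The median log2 difference was -0.02 in the group and -0.17 over all genes. Every P7d heart lay above every E18.5d heart for 17 genes (16.9% of all genes did) and below for 22 (45.6%). The balance turned with the scaling: after median-of-ratios scaling, which brought the median of all genes to -0.02, 18 of the 83 were higher and 12 lower, where 21.3% and 20.9% of all genes were. Without P1d replicate 2, whose spread enters the fit, 13 were higher and 17 lower. Taken as shares of the rise from E18.5d to P1d, the part left at P7d had a median of -0.767%, with the P7d mean at or below the E18.5d mean for 43 genes. The rule, with P1d at least 2 times P7d, capped these shares in advance, so they are a description.

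Of the 8 genes above the fetal level at P7d, *Txnip* came first (log2 difference 1.58 ± 0.11 SE, limma adjusted p = 8.2e-06), followed by *Klf9* (log2 difference 1.15 ± 0.09 SE, limma adjusted p = 1.3e-05) and *Nr1d1* (log2 difference 0.98 ± 0.18 SE, limma adjusted p = 0.0016). *S100a9* (log2 difference 0.94 ± 0.22 SE, limma adjusted p = 0.0063) and *Galnt15* (log2 difference 0.90 ± 0.27 SE, limma adjusted p = 0.021) came next. *Cirbp* (log2 difference 0.80 ± 0.06 SE, limma adjusted p = 1.2e-05), *Inpp5k* (log2 difference 0.47 ± 0.09 SE, limma adjusted p = 0.0026) and *Irs2* (log2 difference 0.40 ± 0.11 SE, limma adjusted p = 0.011) had the smallest differences. The insulin and nutrient set, made after the values were seen, gave 3 of the 8 and none of the 15 that were lower. That is 3 of its 10 genes, beside 12.5% of all genes higher. Of the 3, *Txnip* and *Inpp5k* met the rule under none of the 4 other scalings, and nothing is read from this count. Below the fetal level, *Mt2* stood lowest (log2 difference -2.27 ± 0.23 SE, limma adjusted p = 5.4e-05), before *Per1* (log2 difference -1.03 ± 0.14 SE, limma adjusted p = 0.00027) and *Klf15* (log2 difference -0.94 ± 0.19 SE, limma adjusted p = 0.0028). *Slc10a6* (log2 difference -0.87 ± 0.28 SE, limma adjusted p = 0.027) and *Proser2* (log2 difference -0.86 ± 0.12 SE, limma adjusted p = 0.00039) came after them. The other 10 were *Spock2*, *Pla2g7*, *2410006H16Rik*, *Zbtb16*, *Gstm1*, *1500011B03Rik*, *Per2*, *C3*, *Csrnp1* and *Resf1*, with log2 differences from -0.83 to -0.32. Clock genes thus stood on both sides, *Per1* and *Per2* lower and *Nr1d1* higher, and so did the glucocorticoid list, with *Klf9* higher and *Mt2*, *Klf15* and *Zbtb16* lower. Of the 18 genes placed with the enzymes, 17 did not pass, and *Gstm1* was the exception. Among enzymes placed in other sets, *Pla2g7*, *Galnt15* and *Inpp5k* passed, while *Sult1a1* and *Pim3* did not. The sets were made after the values were seen, so nothing is read from this count. The calls of *Resf1*, *C3*, *Slc10a6*, *Csrnp1* and *Galnt15* were lost under at least 5 alternative settings each.

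**Figure D5:**
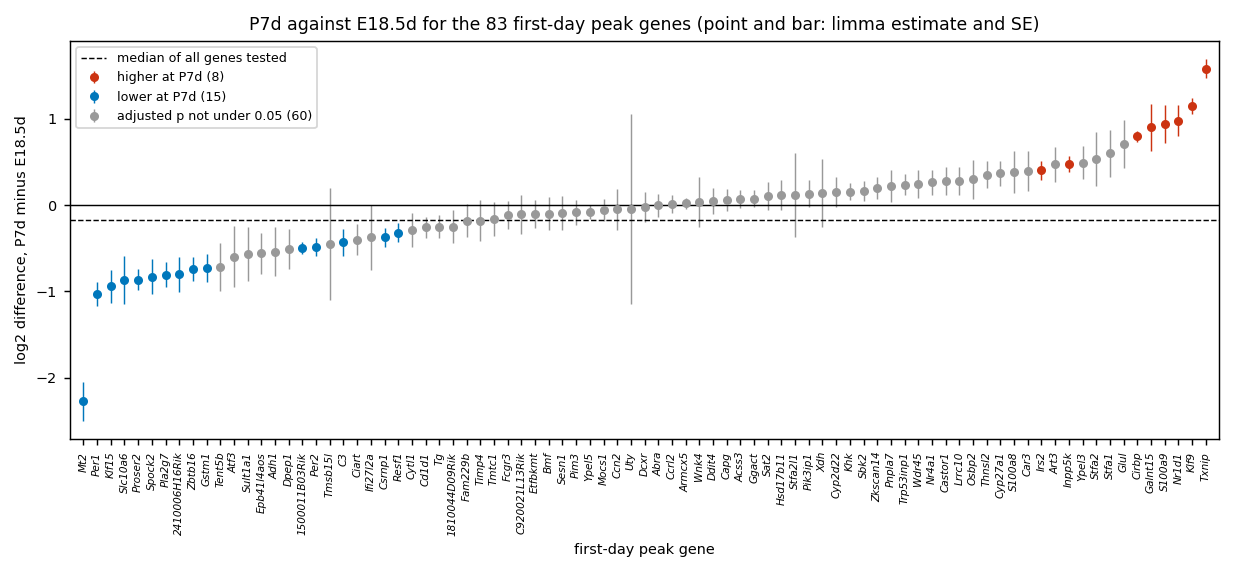
Log2 difference at P7d against E18.5d (y axis, log2(FPKM + 1) scale) for each of the 83 genes, ordered by value; points are limma estimates and bars their SE. The 8 genes called higher end at Txnip (1.58), the 15 called lower begin at Mt2 (-2.27), and the dashed line is the median of all genes tested (-0.17).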

How the data were processed

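Hearts of wild-type C57BL/6J mice were collected at E18.5d, P1d and P7d (3 per stage). Total RNA was extracted with Trizol and libraries were made with the NEBNext Ultra RNA kit; whether they keep the strand is not stated. The authors deposited 1 table of FPKM with 48820 rows and 2 decimals. The submitters' processing notes name STAR and GRCm38 (mm10) without versions; the program that counted fragments and its annotation are not given in the sources used here. Of the rows, 24151 had no symbol and 26 held a date in place of one, leaving 24643. Samples were grouped by the stage in their labels.

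The rule was applied to the FPKM as deposited. For the test, limma 3.58.1 (R 4.3.3; eBayes with trend) was run on log2(FPKM + 1), with the 9 hearts in 1 fit, over the 13618 genes whose mean reached 1 FPKM, and p-values were adjusted by Benjamini and Hochberg. A log2 difference on this scale understates the change of low genes. On simulated data with 200 changed genes the fit recovered 92% for P7d against E18.5d and called 8 unchanged genes. Depth was estimated from the steps between low FPKM values, of which 86.3% to 89.4% were whole multiples within 0.15; these are not counts, and no count test was run. Coordinates and gene types came from GENCODE M21 (48058 identifiers matched), and promoter sequences from RefSeq (GRCm38.p6). Tables were handled with Python 3.11.15 (pandas 2.3.3, numpy 2.4.6) and drawn with matplotlib 3.10.9.

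Genes given with every heart's value are the 25 with the largest ratio of P1d to the higher other stage, the 10 highest at P1d, those in a gene list, those nearest each threshold and those with the 5 largest changes each way at P7d against E18.5d; the others are given by range and count. Genes outside the 83 named from the lists were chosen after their values were seen. The members and lists were chosen with earlier results of these data known. The p-values set each difference against the spread between hearts within a stage, pooled over the 3 stages and adjusted across genes by eBayes. Alternatives were other pseudocounts, filters, scalings, thresholds and fits, and leaving out each heart.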

Additional observations from a re-analysis of the deposited data

How the results depend on the processing

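The number of genes that met the rule was 332 at 1.5 times, 19 at 3 times, 146 at a P1d mean of 1 FPKM and 30 at 20 FPKM. It was 48 after scaling to an equal sum, 60 after scaling to protein-coding genes (59 shared with the 83), 79 after median of ratios and 83 after quantile normalization (74 shared). Leaving out 1 heart gave 54 (without P1d replicate 2) to 139 (without P1d replicate 3). Among the 83, the genes higher at P7d than at E18.5d numbered 18 after scaling to protein-coding genes, 18 after median of ratios (12 lower), 21 after quantile normalization and 13 with the 2 compared stages alone, and 7 to 13 when 1 heart was left out. Those lower numbered 11 to 18 when 1 heart was left out. For the other genes of the 7 lists, those lower at P1d than at E18.5d (6) numbered 11 after scaling to an equal sum and 3 with *Xist* as a covariate, and those higher at P7d than at P1d (10) numbered 20 after scaling to protein-coding genes. With 1 heart left out, 52 to 62 of them were higher and 4 to 6 lower at P1d, and 9 to 12 higher and 47 to 51 lower at P7d. For these list genes the fits without trend, with 2 stages, with the replicate block and with the *Xist* covariate were chosen after seeing the data. Replicate numbers did not pair the hearts (correlations of deviations of -0.0546 to 0.112 between hearts with the same number), and with the replicate block 10 of the 83 were higher and 17 lower, and 57 list genes were higher and 7 lower at P1d. The balance of 8 higher and 15 lower thus turned under 3 scalings. No single gene changed the sign of a called difference. Over single genes and settings 2411 values stayed on their side of the threshold, 49 lost a call and 87 gained one. The causes were not tested. Depth limits the lowest genes, and 3 hearts per stage limit the precision.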

Other observations

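Outside the 83 genes, 12 rows without a symbol and 3 with a symbol starting with Gm met the same thresholds. The most abundant was *Atcayos*, an antisense RNA, with 20.7, 21.96 and 19.4 FPKM at E18.5d, 92.03, 86.7 and 96.07 at P1d and 40.1, 35.2 and 34.2 at P7d. *Tmem147os*, a processed transcript, had 1.89, 2.1 and 1.44 FPKM at E18.5d, 6.96, 5.76 and 6.25 at P1d and 3.08, 2.77 and 2.74 at P7d. In both, the third P1d heart was not the lowest.

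Several gene lists placed few or none of their genes among the 83, and their tested genes moved in either direction at P1d against E18.5d (18.4% of all genes rose and 27.6% fell by limma). Of 20 heat shock and chaperone genes, 1 rose and 14 fell. Of 15 protein partners of small RNAs of the H/ACA and C/D classes, 0 rose by limma (0 at an unadjusted p under 0.05 as well) and 13 fell. In the integrated stress response list, which holds *Ddit4*, 2 of 19 other genes rose and 7 fell. In the nitrogen and amino acid list, which holds *Glul*, 1 of 15 other genes rose and 6 fell. Of 14 genes of iron and erythropoiesis signalling, 6 rose and 3 fell.

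At every stage the 83 genes had the larger median coefficient of variation between hearts, but the comparison was not matched for level. The rule used the same values, so no trait is read from this difference, and its cause was not tested. The coefficient of variation over the 3 P1d hearts had a median of 23.7% for the 83 genes and 8.68% for 8911 other genes with a P1d mean of at least 5 FPKM. The medians were 11.8% and 5.93% at E18.5d and 11.9% and 6.04% at P7d. The P1d value exceeded that of both other stages in 55 of the 83 genes and in 53.6% of the others.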
